A study of Mus musculus with 3 samples.

Results

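The comparison set muscle of swimming mice fed Chlorella, a unicellular green alga, against muscle of nonswimming mice on normal food. It was formed by taking the array of each of these groups, 2 of the 3 arrays of the series, and the genes whose probe was well above background on both: 15334 of 27661 genes. Both groups were male mice, 6 weeks old by the labels and sampled after 14 days. The first group ate food with 0.5% Chlorella powder and swam, and the second ate normal food and did not swim. The remaining array came from mice of the same sex, age and time that swam on normal food, and its values are given beside the others. The RNA of 10 mice was pooled in each group and hybridised to 1 single-colour Agilent array, so the data hold no spread between mice. Neither the strain nor the name of the muscle is given in the sources used here.

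With 1 array a group no test was possible, no p-value is given, and genes were called by size, at least 2-fold. The ± value after each log2 ratio combines the spot errors that the scanner software reported (median 0.20) and leaves out differences between mice. Levels are scaled signals: the processed fluorescence intensity divided by that array's 75th percentile, which was 285.9 intensity units on the nonswimming array, 295.0 on the normal-food swimming array and 237.8 on the Chlorella swimming array. Well above background were 57.9%, 60.4% and 57.0% of 41169 probes, in the same order, and none was saturated. The lowest scaled signals well above background were 0.0226, 0.0196 and 0.0263. Swimming and Chlorella differed together between the arrays compared, so their shares in a difference cannot be told apart. Precision is limited by this number of arrays.

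The labelled tissue was checked against genes of skeletal muscle fibres. All 9 fibre markers were well above background on every array and none differed by 2-fold between the arrays compared. Acta1, the skeletal muscle actin, had scaled signals of 637.7 on the nonswimming, 578.2 on the normal-food swimming and 751.6 on the Chlorella swimming array. Ckm, muscle creatine kinase, had 553.7, 537.1 and 641.8 in the same order. The summed scaled signal of the 9 markers was 4600, 3880 and 5040. No fibre marker went against the label of muscle on any array.

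Several gene programmes known in muscle bear on what follows. Metallothioneins are small cysteine-rich proteins that bind zinc and copper, and their genes respond to zinc through the factor MTF1 and to glucocorticoids, the steroid hormones of stress. Immediate-early genes such as those of the Jun and Maf families are transcribed within minutes of a stimulus, contraction included. Muscle also holds resident macrophages and mast cells between its fibres, while neutrophils and eosinophils reach it from the blood.

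Of the 15334 genes, 318 were at least 2-fold higher on the Chlorella swimming array (2.07%) and 228 at least 2-fold lower (1.49%). The remaining 14788 genes, or 96.4%, lay within 2-fold, with a median log2 ratio over all genes of 0.04 and a middle range of -0.18 to 0.24. At least 4-fold higher were 43 genes, and at least 4-fold lower 23. The higher calls included bright genes of stress and fat synthesis, and the lower calls were led by genes of skin and of granulocytes. Where both signals were at least 50 intensity units, 146 genes were higher and 78 lower. Another 186 genes were higher and 219 lower by a bound that reached 2-fold. Each of them was well above background on only 1 of the arrays compared. The total of genes seen on only 1 of these arrays is not given. Counts by bound in the lists below therefore have no all-gene share beside them.

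**Figure D1:**
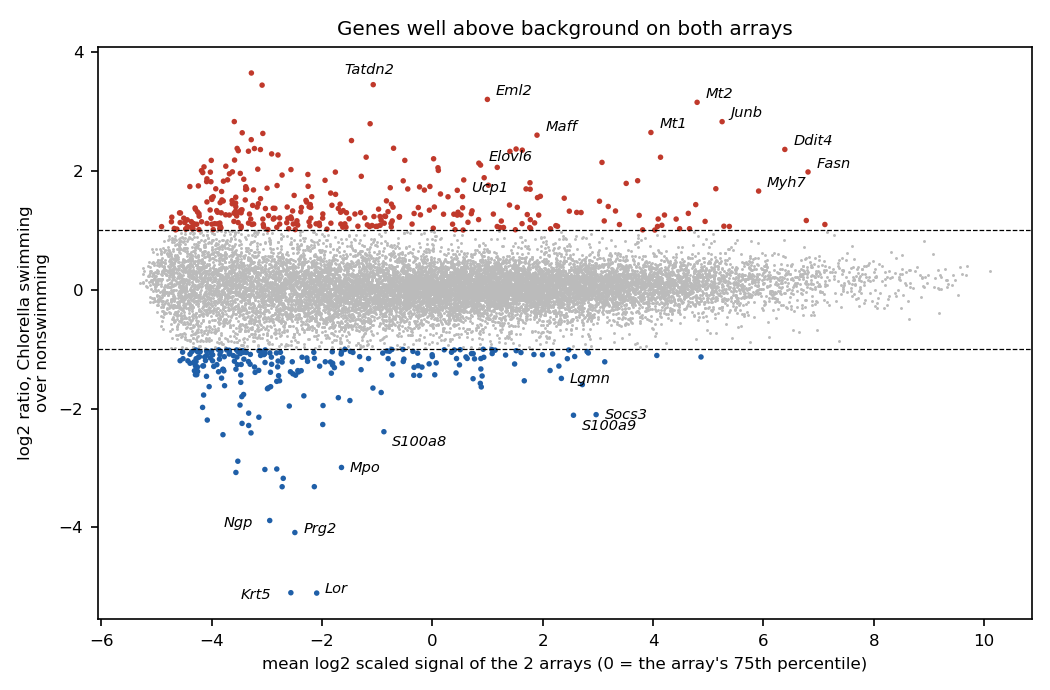
Log2 ratio of the Chlorella swimming array over the nonswimming array (y axis) against the mean log2 scaled signal of both arrays (x axis) for the 15334 genes measured on both, 1 point a gene. Dashed lines mark 2-fold. Red points are the 318 genes higher and blue points the 228 lower. Mt2, Junb, Ddit4 and Fasn stand apart among bright genes, while Lor, Krt5, Prg2 and Ngp, the farthest below, have low mean signals.

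The metallothionein genes Mt1 and Mt2 were among the largest differences. Mt2 had a scaled signal of 9.35 on the nonswimming array, 11.8 on the normal-food swimming array and 82.85 on the Chlorella swimming array. Mt1 had 6.24, 9.65 and 38.9 in the same order. Both genes were high on the Chlorella swimming array alone, and the 2 other arrays lay near each other. The log2 ratio was 3.15 ± 0.20 for Mt2, or 8.87-fold, and 2.64 ± 0.20 for Mt1, or 6.24-fold, with 3.42 at a second Mt1 probe. On chromosome 8, the probe of Mt2 spans 92762515 to 92762574 and that of Mt1 spans 92769155 to 92769214, by the position column of the array files (build not given in the sources used here). The other 13 measured genes of their list, mostly zinc transporters, were all within 2-fold, and so were the less widely expressed metallothioneins Mt3 (-0.23 ± 0.21) and Mt4 (0.25 ± 0.26) among them. The median of the 15 was -0.04, against 0.04 over all genes, so the calls were those of Mt1 and Mt2 alone.

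Because these neighbouring genes were high together, the 250 bases before each start site are shown, from RefSeq with assembly GRCm38.p6, for Mt1 at chr8:94178839-94179088 and Mt2 at chr8:94172368-94172617, both on the plus strand. Capitals mark the core of the metal response element, the site of MTF1, searched as TGCACNC or TGCGCNC on both strands.
Mt1: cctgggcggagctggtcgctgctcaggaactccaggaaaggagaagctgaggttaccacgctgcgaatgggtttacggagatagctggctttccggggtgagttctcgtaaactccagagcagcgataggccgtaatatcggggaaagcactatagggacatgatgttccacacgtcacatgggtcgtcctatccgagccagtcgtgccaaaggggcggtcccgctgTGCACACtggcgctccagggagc
Mt2: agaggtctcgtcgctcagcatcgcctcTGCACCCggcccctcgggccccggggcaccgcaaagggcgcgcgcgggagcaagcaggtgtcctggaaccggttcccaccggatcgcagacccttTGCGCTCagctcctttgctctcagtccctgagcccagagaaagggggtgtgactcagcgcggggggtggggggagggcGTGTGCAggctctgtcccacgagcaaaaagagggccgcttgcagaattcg
The Mt1 window held 1 match, at position -23 from the RefSeq start site. The Mt2 window held 3 matches, at -223, -128 and -50, the last on the opposite strand. Of 32851 promoter windows of 250 bases, 21.4% held at least 1 match and 1.26% at least 3, so a single match is common and 3 are rare. A match is a run of letters and was not tested as a site. Each window ended at the 1 RefSeq start of its gene, and bases after that start were not searched. The counts are therefore those of the windows and not of the whole promoters. Among genes described below, the windows of Ddit4 and Junb also held 1 match each. A window of Maff, which has 3 starts, held 2, and 5.17% of all windows hold at least 2. The core was thus not particular to the metallothioneins among the genes searched.

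Genes that respond to glucocorticoids were shifted upwards. The list had 31 measured genes, 9 of them 2-fold or more higher (29.0%) and 1 lower (3.23%), beside 2.07% and 1.49% of all genes. The list's median was 0.67, and 28 of 31 genes were above 0. Ddit4, which encodes REDD1, an inhibitor of the growth kinase mTORC1, had scaled signals of 37.0, 38.6 and 189.4 on the nonswimming, normal-food swimming and Chlorella swimming arrays. Its log2 ratio was 2.36 ± 0.20, a 5.12-fold difference held by the Chlorella swimming array alone. Gadd45b, a stress gene that binds kinases and cell-cycle proteins, had 4.02, 7.89 and 17.7 (log2 ratio 2.14 ± 0.20), so the normal-food swimming array lay between the others. Arrdc2, an arrestin-like gene, had 1.10, 0.686 and 3.72 (1.75 ± 0.20). Cdkn1a, which encodes the cell-cycle inhibitor p21, had 0.532, 0.489 and 1.77 (1.73 ± 0.20). As with Ddit4, only the Chlorella swimming array was high for these 2 genes.

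Classical glucocorticoid targets differed less. Fkbp5, a co-chaperone of the glucocorticoid receptor, had scaled signals of 0.868, 0.628 and 1.43 and a log2 ratio of 0.72 ± 0.20, with up to 1.54 at another of its 3 probes. Tsc22d3, or GILZ, had 33.7, 22.7 and 45.8 (0.44 ± 0.20), and the kinase Sgk1 had 58.7, 42.7 and 87.3 (0.57 ± 0.20). All 3 were highest on the Chlorella swimming array and lowest on the normal-food swimming array. The ubiquitin ligase genes of muscle wasting were not 2-fold apart: Fbxo32, atrogin-1, had a log2 ratio of -0.07 ± 0.20 and Trim63, MuRF1, of 0.84 ± 0.20, with 1.73 at a second Trim63 probe. In the whole atrophy list of 23 genes none was called, with a median of 0.11.

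Immediate-early genes and targets of the factor CREB counted 9 of 40 members higher (22.5%), 1 lower (2.5%) and a median of 0.57. Junb, an AP-1 transcription factor, had scaled signals of 14.3, 35.5 and 101.3 on the nonswimming, normal-food swimming and Chlorella swimming arrays. The log2 ratio was 2.82 ± 0.20 at its brightest probe and 2.80 at the other, higher at each step over the 3 arrays. Zfp36, or tristetraprolin, which destabilises cytokine mRNAs, showed the same steps with 1.26, 3.12 and 6.50 (2.36 ± 0.20). Maff, a small Maf transcription factor, had 1.51, 1.27 and 9.16 (2.60 ± 0.20), and Csrnp1, a nuclear protein induced by axin, had 1.83, 1.65 and 6.36 (1.80 ± 0.20). Those 2 genes were high on the Chlorella swimming array only.

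The windows of Zfp36 (chr7:28379229-28379478, minus strand) and Maff (chr15:79347270-79347519, plus strand, 1 of 3 Maff starts in the table) are shown because they hold motifs of factors known to drive immediate-early genes. Both are the 250 bases before the start site, from RefSeq with GRCm38.p6. Capitals mark a CArG box, the site of serum response factor, in Zfp36 and a cyclic AMP response element, the site of CREB, searched as TGACGTCA, in Maff. Both motifs were searched on both strands.
Zfp36: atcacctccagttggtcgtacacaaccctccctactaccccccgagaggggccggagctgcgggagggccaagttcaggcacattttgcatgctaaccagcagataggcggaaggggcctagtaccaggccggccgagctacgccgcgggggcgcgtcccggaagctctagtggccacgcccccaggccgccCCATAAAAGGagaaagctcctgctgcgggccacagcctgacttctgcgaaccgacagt
Maff: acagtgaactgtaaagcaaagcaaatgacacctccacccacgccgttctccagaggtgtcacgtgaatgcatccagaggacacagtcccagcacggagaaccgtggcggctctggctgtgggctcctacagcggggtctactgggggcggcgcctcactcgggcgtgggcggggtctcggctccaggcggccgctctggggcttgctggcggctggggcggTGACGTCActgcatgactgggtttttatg
The CArG box lies at position -58 from the Zfp36 start and the CREB motif at -29 from the Maff start. Of the 32851 windows, 1.47% held a CArG box and 1.55% the CREB motif. The windows of Junb, Csrnp1, Ciart, Socs3, Socs1, Mt1, Mt2, Ddit4, Gadd45b, Arrdc2 and Cdkn1a, also searched, held neither. Zfp36 and Maff were picked from these searches because a window held a match, and for Maff the start with a match was taken. That choice fixed the outcome, so the shares of windows are no support for either motif. The glucocorticoid response element was found once in the Mt1 window (0.387% of windows hold it) and not in those of Mt2, Ddit4, Gadd45b, Arrdc2 or Cdkn1a. The data hold no binding measurement for either factor.

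The other members did not follow as a block. Fos, the partner of Jun proteins in AP-1, had scaled signals of 1.72, 2.08 and 1.42 on the nonswimming, normal-food swimming and Chlorella swimming arrays (log2 ratio -0.27 ± 0.20). Egr1 had a log2 ratio of 0.36 ± 0.20, Atf3 of -0.73 ± 0.20 and Nr4a1, an orphan nuclear receptor, of 0.92 ± 0.20. Fosb was lower, at 0.231, 0.0848 and 0.0746 (-1.63 ± 0.23), on dim signals. Sik1, a kinase that restrains CREB signalling, was higher at 0.364, 0.207 and 0.984 (1.44 ± 0.21). So Junb and Maff were high where Fos and Egr1 were within 2-fold. Sik1 and Fosb came within 2-fold with normexp background correction, and Nr4a3, a relative of Nr4a1, was not well above background on any array. Heat shock genes (29 measured) and genes of the integrated stress response (18 measured) had no member called and medians of 0.06 and 0.09. In the circadian clock list 1 of 21 genes was called, Ciart, a repressor of the clock, with a log2 ratio of 1.06 ± 0.21, and Per1 had 0.56 ± 0.20.

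**Figure D2:**
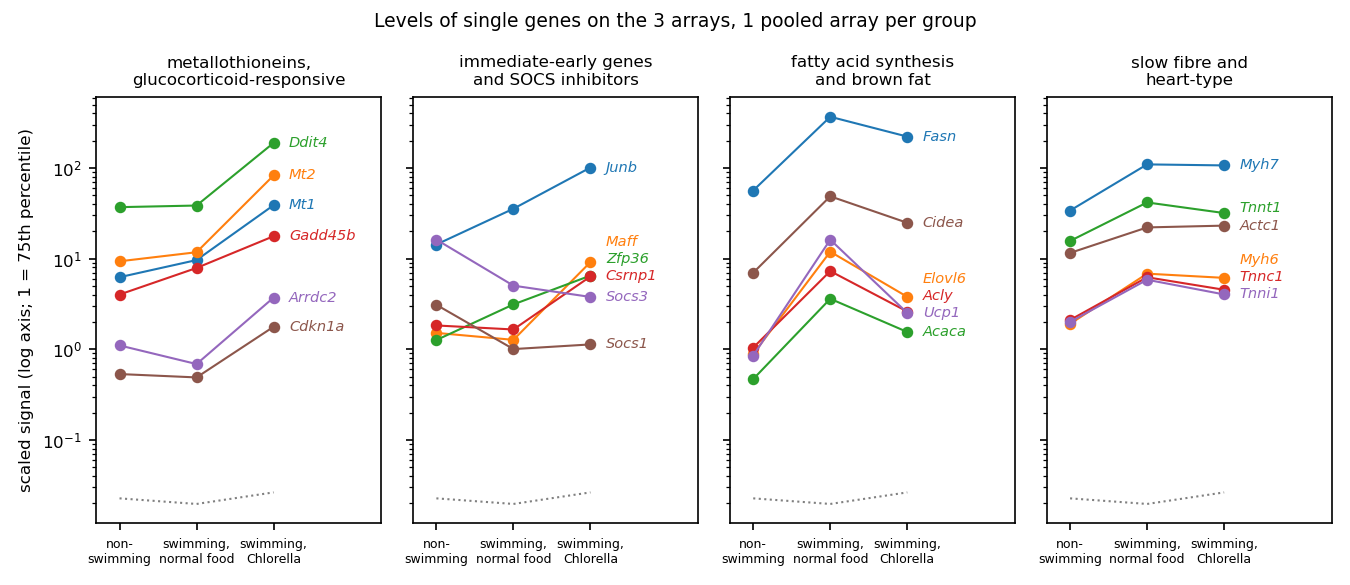
Scaled signal (log axis) of single genes on the nonswimming, normal-food swimming and Chlorella swimming arrays, 1 pooled array each, in 4 groups of genes. Filled points were well above background and the dotted line is the lowest scaled signal that was. Mt1, Mt2, Ddit4 and Maff are high on the Chlorella swimming array alone, Fasn and Ucp1 peak on the normal-food swimming array, and Socs3 is lowest on the Chlorella swimming array.

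Socs3, Socs1 and Cish, which encode feedback inhibitors of cytokine receptors that signal through JAK kinases and STAT factors, were lower. Socs3, the inhibitor induced by interleukin-6 and its relatives, had scaled signals of 16.2 on the nonswimming, 5.03 on the normal-food swimming and 3.78 on the Chlorella swimming array. Its log2 ratio was -2.10 ± 0.20, or 4.30-fold lower. Socs1 had 3.09, 1.004 and 1.13 (-1.45 ± 0.20), and Cish had 24.6, 11.5 and 11.4 (-1.11 ± 0.20). All 3 were low on both swimming arrays. In the list of interleukin-6 family signalling and SOCS genes these were the only calls, 3 of 15 (20.0% lower, none higher), and the median was -0.01. Nfkbia, the inhibitor of NF-kB, went the other way, with 14.2, 15.8 and 32.2 (1.18 ± 0.20).

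Genes of fatty acid synthesis were higher. Calls were made for 6 of 20 measured genes, all of them higher (30.0%), and the median was 0.54. Fasn, fatty acid synthase, had scaled signals of 56.5 on the nonswimming, 368.1 on the normal-food swimming and 222.3 on the Chlorella swimming array (log2 ratio 1.98 ± 0.20). Elovl6, an elongase of palmitate, had 0.887, 11.9 and 3.79 (2.09 ± 0.20). The Chlorella swimming array was above the nonswimming array and below the normal-food swimming array for both. The same order held for Acaca, acetyl-CoA carboxylase (0.469, 3.61 and 1.55, log2 ratio 1.73 ± 0.20), and Acly, ATP citrate lyase (1.04, 7.29 and 2.61, 1.32 ± 0.20). Scd1, the desaturase of stearate, just missed the 2-fold rule with 0.97 ± 0.20. The 23 measured genes of cholesterol synthesis had a median of 0.09.

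Some genes of brown fat and of fat cells in general were higher, and none was lower by 2-fold. Ucp1, the uncoupling protein of brown fat, had scaled signals of 0.851, 16.2 and 2.51 on the nonswimming, normal-food swimming and Chlorella swimming arrays, with a log2 ratio of 1.56 ± 0.20. Cidea, a lipid droplet protein abundant in brown fat, had 6.99, 48.7 and 24.9 (1.83 ± 0.20). Both peaked on the normal-food swimming array. Of 18 measured brown fat markers 4 were higher (22.2%) and none was lower, with a median of 0.23. Besides Otop1, a proton channel (1.19 ± 0.24), Zic1, a developmental transcription factor also expressed in brown fat, was another of these, at 0.107, 0.0496 and 0.410 (1.94 ± 0.22, and 2.02 at its other probe), high on the Chlorella swimming array only. With normexp background correction Otop1 and Zic1 came within 2-fold, while Ucp1 and Cidea stayed beyond it. Of 23 general fat cell markers 3 were higher (13.0%), Cidea, Pck1 (1.32 ± 0.20) and Thrsp (1.25 ± 0.20), and the median was 0.23. The defining markers of fat cells were within 2-fold: adiponectin, Adipoq, had a log2 ratio of -0.17 ± 0.20, perilipin, Plin1, of 0.38 ± 0.20, leptin, Lep, of 0.01 ± 0.21 and adipsin, Cfd, of 0.06 ± 0.20. The summed scaled signal of the fat cell markers was 857 on the nonswimming, 1350 on the normal-food swimming and 996 on the Chlorella swimming array. The part of fat cells in the fatty acid synthesis values was not tested.

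Among contractile genes, those of slow and heart-type fibres held all the calls. Myh7, the slow myosin heavy chain, had scaled signals of 33.9 on the nonswimming, 109.7 on the normal-food swimming and 106.9 on the Chlorella swimming array (log2 ratio 1.66 ± 0.20). Myh6, the alpha myosin heavy chain of heart, had 1.91, 6.83 and 6.13 (1.69 ± 0.20, and 1.53 at its other probe). Both were high on the 2 swimming arrays alike. Tnnc1, the slow troponin C, had 2.10, 6.23 and 4.53 (1.11 ± 0.20), and Tnnt1, the slow troponin T, had 15.7, 41.7 and 31.9 (1.02 ± 0.20). With Tnni1 (1.01 ± 0.20) and Actc1, which just reached 2-fold, 6 of 23 slow and heart-type genes were higher (26.1%) and none was lower. The list's median was 0.20, with 12 genes above 0 and 11 below. It was -0.09 with the authors' deposited values, and Tnnt1, Tnni1 and Actc1 came within 2-fold with quantile normalization and cyclic loess. Myl2, a slow myosin light chain, had a log2 ratio of 0.30 ± 0.20.

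Fast fibres and energy metabolism hardly differed. None of 20 fast fibre genes was called, and Myh4, Myh2 and Myh1, the fast myosin heavy chains, had log2 ratios of 0.26, 0.20 and 0.11, each ± 0.20. The fast fibre median of 0.16 was at or below 0 with quantile normalization and cyclic loess, so it has no direction. No gene was called among 32 of glycolysis (median 0.16), 23 of the citric acid cycle (-0.04), 75 of the respiratory chain (0.24) or 18 of calcium handling (0.16). Of 34 fatty acid oxidation genes, 1 was called, the mitochondrial uncoupling protein Ucp3, at 1.70, 1.79 and 3.51 (1.04 ± 0.20). At the neuromuscular junction 1 of 17 genes was called, Lrp4, the muscle receptor for agrin (1.23 ± 0.21), while the acetylcholine receptor subunit Chrna1 had 0.25 ± 0.20. Of the myogenic factors Myog had 0.80 ± 0.20 and Myod1 -0.59 ± 0.20. The respiratory chain and the 76 cytosolic ribosomal protein genes (median 0.25, 1 called) lay slightly above the all-gene median, with 61 of 75 and 64 of 76 members above 0.

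**Figure D3:**
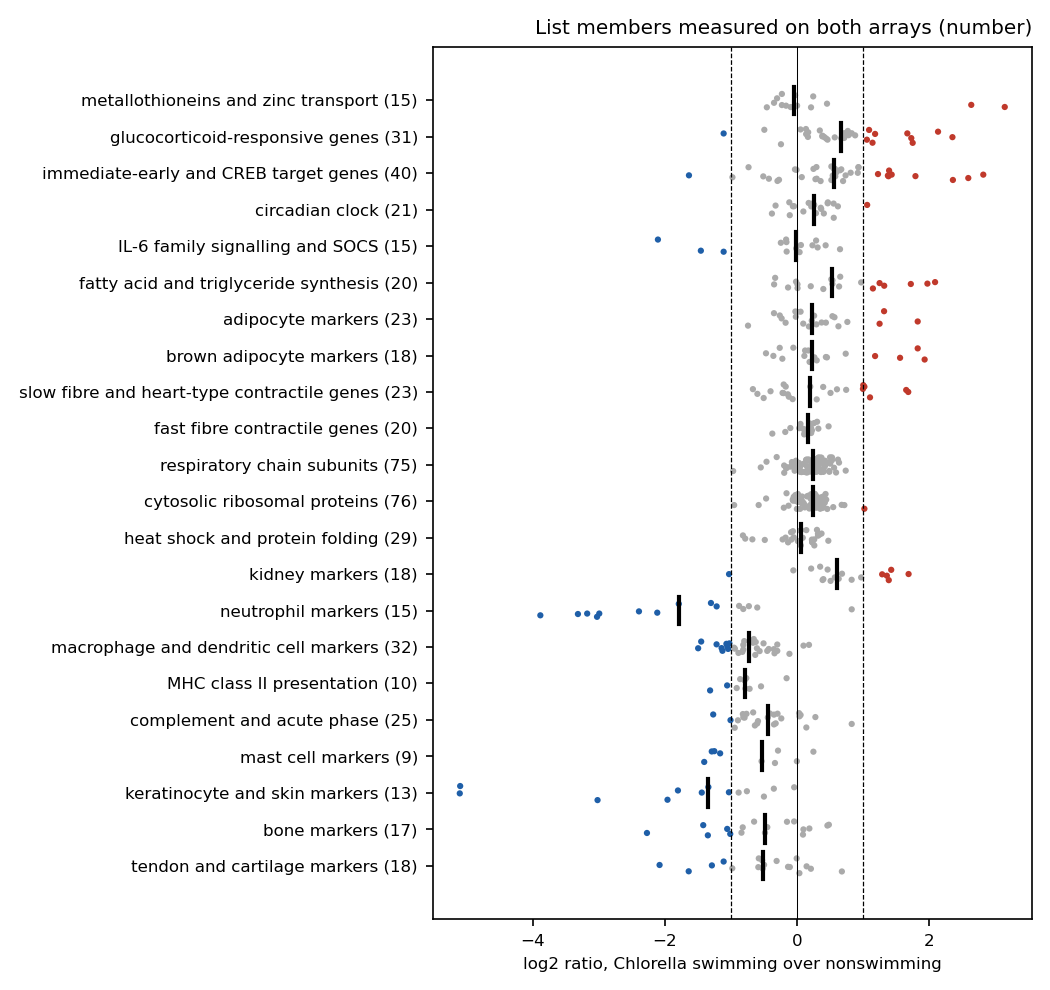
Log2 ratio of the Chlorella swimming array over the nonswimming array for the members of a selection of the gene lists, 1 point a gene (vertical scatter within a row is random) and a black bar at the list's median. The number beside a name is its count of members measured on both arrays, dashed lines mark 2-fold, and red and blue points are genes past it. Glucocorticoid-responsive genes (median 0.67), kidney markers (0.61) and immediate-early genes (0.57) sit highest by median, and neutrophil (-1.79) and keratinocyte markers (-1.34) sit lowest.

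Neutrophil granule genes were lower. Ngp, neutrophilic granule protein, had scaled signals of 0.499 on the nonswimming, 6.14 on the normal-food swimming and 0.0338 on the Chlorella swimming array, a log2 ratio of -3.88 ± 0.30. Ltf, lactoferrin, had 0.717, 12.6 and 0.0721 (-3.31 ± 0.24). S100a9, a subunit of calprotectin, had 12.3, 207.1 and 2.83 (-2.11 ± 0.20). The order was the same for each, highest on the normal-food swimming array and lowest on the Chlorella swimming array. It held too for S100a8, the partner of S100a9 (-2.39 ± 0.21), Mpo, myeloperoxidase (-2.99 ± 0.22), Ctsg, cathepsin G (-3.17 ± 0.26), and Camp, cathelicidin (-3.02 ± 0.28). The array design holds 27 neutrophil markers, of which the nonswimming array measured 21 above background, the normal-food swimming array 27 and the Chlorella swimming array 15. Of the 15 measured on both arrays compared, 10 were lower (66.7%) and none higher, with a median of -1.79, and 4 more were lower by bound. Their summed scaled signal was 18.2 on the nonswimming, 293 on the normal-food swimming and 4.18 on the Chlorella swimming array. The list's median ranged from -1.81 to -0.87 over 8 alternative settings. Where both signals had to be at least 50 intensity units, fewer than 3 members remained and no median was taken. On the Chlorella swimming array Ngp, Ltf, Ctsg and Camp were dim, at 8.04, 17.1, 12.2 and 10.2 intensity units. The size of their ratios is therefore uncertain: the smallest over the alternative settings were -1.63, -1.56, -1.29 and -1.005, in that order. In pooled tissue, fewer cells of a type and less RNA per cell cannot be told apart.

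Eosinophil genes followed the same order. Prg2, the major basic protein of eosinophil granules, had scaled signals of 0.733, 17.1 and 0.0432 on the nonswimming, normal-food swimming and Chlorella swimming arrays and a log2 ratio of -4.09 ± 0.27. Ear1, an eosinophil ribonuclease, had 0.226, 2.31 and 0.0719 (-1.65 ± 0.24). Only these 2 of 9 eosinophil markers on the array were measured on both, and both were lower. Another 5 were seen on the nonswimming array only, among them Epx, eosinophil peroxidase, whose bound was a log2 ratio of -0.30 and did not reach 2-fold. Prg2 and Ear1 were dim on the Chlorella swimming array, at 10.3 and 17.1 intensity units, so the size of their ratios is uncertain. With normexp background correction Prg2 had -1.89, and Ear1 came within 2-fold at -0.55.

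Macrophage and dendritic cell genes were lower by smaller factors but nearly throughout. Of 32 measured markers 9 were lower (28.1%) and none was higher. The median was -0.73, 30 of 32 were below 0, and the median ranged from -0.81 to -0.44 over the alternative settings. Lgmn, the lysosomal protease legumain, had scaled signals of 8.49 on the nonswimming, 4.46 on the normal-food swimming and 3.01 on the Chlorella swimming array (log2 ratio -1.49 ± 0.20). Retnla, a product of alternatively activated macrophages, had 13.3, 11.2 and 5.73 (-1.22 ± 0.20), and Folr2, the folate receptor of resident macrophages, had 2.83, 2.31 and 1.29 (-1.14 ± 0.20). Adgre1, the F4/80 antigen, had 1.48, 1.32 and 0.678 (-1.13 ± 0.20). All 4 were lowest on the Chlorella swimming array, and the last 3 lay closer together on the other arrays. The remaining defining markers, Cd68 (-0.94 ± 0.21), Csf1r (-0.63 ± 0.20) and Mrc1 (-0.60 ± 0.20), were below 0 and within 2-fold. The list's summed scaled signal was 154, 191 and 94.1 in the order above.

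Antigen presentation by MHC class II, a task of these cells and of B cells, was lower in the same way. All 10 measured genes were below 0, with a median of -0.78, and 2 passed 2-fold (20.0%): H2-Ea (-1.31 ± 0.22) and H2-DMb2 (-1.05 ± 0.22). With normexp background correction both came within 2-fold. H2-Ab1, a beta chain, had scaled signals of 9.27, 8.88 and 4.93 on the nonswimming, normal-food swimming and Chlorella swimming arrays (-0.91 ± 0.20). H2-Aa, the alpha chain, had 1.67, 1.80 and 0.923 (-0.86 ± 0.20), and Cd74, the invariant chain, had -0.54 ± 0.20. For both chains the Chlorella swimming array alone was low. Markers of B cells and of T and NK cells had no member called among 11 and 12 measured, with medians of 0.10 and 0.06. By bound, 2 of 23 B cell markers on the array were lower, among them Ms4a1, which encodes CD20 (-1.01). With bounded members the medians were -0.14 for B cells and -0.18 for T and NK cells, so neither has a direction. The summed scaled signals were 25.6, 47.3 and 28.3 for B cells and 10.8, 12.3 and 10.7 for T and NK cells. Over 20 MHC class I genes the median was -0.26, with 1 call, Tap2, a peptide transporter (1.20 ± 0.21).

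Several chemokine and cytokine receptor genes were lower as well. Ccl8, a monocyte chemoattractant, had scaled signals of 1.41, 0.920 and 0.517 on the nonswimming, normal-food swimming and Chlorella swimming arrays, lower at each step (log2 ratio -1.44 ± 0.21). Ccl6 had 5.83, 4.49 and 2.73 (-1.10 ± 0.20), in the same order. Ccl17 (-1.38 ± 0.35) and Ccl7 (-1.23 ± 0.24) were lower on dim signals, and so were the receptors Ccr2 of monocytes (-1.45 ± 0.24), Cxcr3 (-1.28 ± 0.36) and the interleukin-1 decoy receptor Il1r2 (-1.36 ± 0.22). In all, 5 of 35 cytokines and chemokines were lower (14.3%), 1 was higher (2.86%) and the median was -0.17. The higher one was Cxcl1, a chemoattractant of neutrophils, at 0.0409, 0.237 and 0.161 (1.98 ± 0.28). Of 29 receptors 4 were lower (13.8%), 1 was higher (3.45%) and the median was -0.32. The higher one was Il12rb1, a subunit of the interleukin-12 and interleukin-23 receptors, at 0.0313, 0.0342 and 0.221 (2.82 ± 0.32), so near background on the 2 other arrays that its size is uncertain. With normexp background correction, which shrinks the ratios of dim probes, the ratios of Ccl17, Ccl7, Cxcl1 and the 4 receptors named here came within 2-fold.

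Complement and acute phase genes, taken as 1 list, had a median of -0.44 over 25 genes, with 19 below 0, and 2 lower (8.0%). C4b, a component of the classical pathway, had scaled signals of 2.18, 1.76 and 0.907 on the nonswimming, normal-food swimming and Chlorella swimming arrays (log2 ratio -1.27 ± 0.20), lowest on the Chlorella swimming array. Cfp, properdin, just reached 2-fold, C1qa had -0.82 ± 0.20, while C3, the central component, had 0.04 ± 0.20. Interferon-stimulated genes had no member called among 32, though 26 were below 0, with a median of -0.28. Of genes for pattern recognition and NF-kB, 1 of 28 was lower, Tlr1 (-1.43 ± 0.34), and 1 was higher, Nfkbia, with a median of -0.08.

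Mast cell proteases were lower together. Cma1, a chymase, had scaled signals of 2.19 on the nonswimming, 1.67 on the normal-food swimming and 0.829 on the Chlorella swimming array (log2 ratio -1.40 ± 0.20, and -1.55 at its other probe). Mcpt4, another chymase, had 1.48, 1.14 and 0.624 (-1.25 ± 0.21), and Cpa3, carboxypeptidase A3, had 0.859, 0.878 and 0.384 (-1.16 ± 0.21). The tryptase gene Tpsb2 had 0.380, 0.240 and 0.156 (-1.29 ± 0.21). All 4 were lowest on the Chlorella swimming array. Kit, the receptor that mast cells need to survive, was not: it had 0.161, 0.232 and 0.192 (0.25 ± 0.22). Of 9 measured mast cell genes 4 were lower (44.4%) and none was higher, with a median of -0.53 and summed scaled signals of 7.04, 5.81 and 3.78. With normexp background correction Mcpt4, Cpa3 and Tpsb2 came within 2-fold and Cma1 stayed beyond it.

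**Figure D4:**
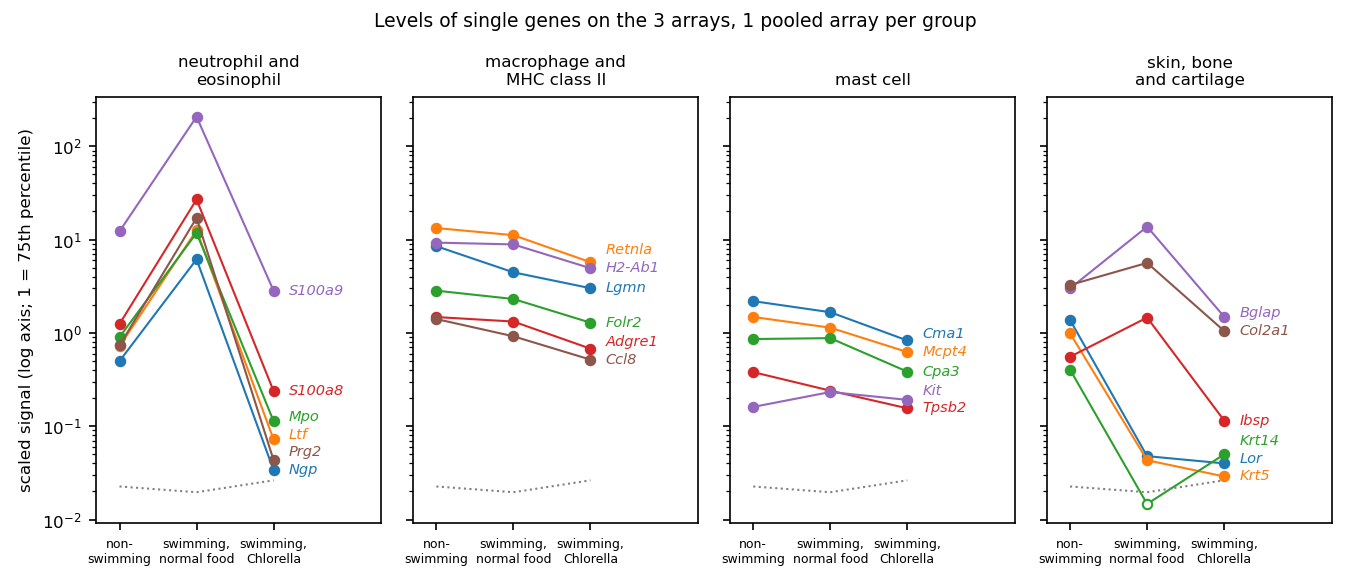
Scaled signal (log axis) of single genes on the nonswimming, normal-food swimming and Chlorella swimming arrays, 1 pooled array each. Filled points were well above background, the open point was not, and the dotted line is the lowest scaled signal that was. Neutrophil and eosinophil genes peak on the normal-food swimming array and are lowest on the Chlorella swimming array, macrophage genes are lowest on the Chlorella swimming array, and Lor, Krt5 and Krt14 are near background on both swimming arrays.

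The farthest lower genes of all were those of skin. Lor, loricrin of the cornified layer, had scaled signals of 1.37 on the nonswimming, 0.0478 on the normal-food swimming and 0.0399 on the Chlorella swimming array (log2 ratio -5.10 ± 0.32). Krt5, a keratin of basal keratinocytes, had 0.990, 0.0432 and 0.0289 (-5.10 ± 0.34), and Krt14, its partner, had 0.404, 0.0147 and 0.0499 (-3.02 ± 0.26). These genes were near background on both swimming arrays and well above it on the nonswimming array. The size of their ratios is therefore uncertain. With normexp background correction Lor had -2.32, Krt5 -2.24 and Krt14 -1.28. Krt10, a keratin of the upper layers, had 4.10, 1.71 and 2.01 (-1.03 ± 0.20). The array design holds 33 skin markers, of which the nonswimming array measured 22 above background, the normal-food swimming array 19 and the Chlorella swimming array 13. Of the 13 measured on both arrays compared, 8 were lower (61.5%) and none higher, with a median of -1.34, and 8 more were lower by bound. The summed scaled signal was 16.4, 9.15 and 7.01. The part of skin RNA in the other values was not tested.

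Bone and cartilage genes were lower as well. Ibsp, bone sialoprotein, had scaled signals of 0.555 on the nonswimming, 1.46 on the normal-food swimming and 0.115 on the Chlorella swimming array (log2 ratio -2.27 ± 0.22). Bglap, osteocalcin, had 3.00, 13.8 and 1.49 (-1.01 ± 0.20), and Mepe, of osteocytes, had 0.284, 1.36 and 0.106 (-1.42 ± 0.22). As for neutrophil genes, the normal-food swimming array was highest and the Chlorella swimming array lowest. Of 17 bone markers 5 were lower (29.4%) and none higher, with a median of -0.48 and summed scaled signals of 21.0, 56.7 and 13.7. With normexp background correction Bglap and Mepe came within 2-fold, Ibsp stayed beyond it, and the bone median was -0.24. Bone marrow holds neutrophils and their precursors, and the part of bone or marrow in the neutrophil values was not tested. Col2a1, cartilage collagen, had 3.26, 5.63 and 1.05 (-1.64 ± 0.20, and -2.71 at another probe). Tnmd, tenomodulin of tendon, had 7.66, 2.96 and 3.14 (-1.29 ± 0.20), low on both swimming arrays. Scx, a tendon transcription factor, had 0.00 ± 0.20. Of 18 tendon and cartilage markers 4 were lower (22.2%) and none higher, with a median of -0.51.

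Few markers of other cells passed 2-fold. Of 12 erythroid markers 2 were lower (16.7%), Slc4a1, the anion exchanger of red cells (-1.41 ± 0.21), and Trim10 (-1.30 ± 0.36), while the haemoglobin gene Hba-a1 had -0.34 ± 0.20, in a family of near-identical copies whose signals may mix. The erythroid median was -0.20, and 4 more of the 22 markers on the array were lower by bound. Where both signals were at least 50 intensity units, the erythroid median was 0.17, so it has no direction. Of 11 platelet markers 1 was lower, Ppbp (-1.36 ± 0.25), and Pf4 had -0.51 ± 0.20. The platelet median was -0.49, close to that of bone markers, but 0.05 with normexp background correction. None of 28 endothelial and pericyte markers was called (median 0.13). Of 19 Schwann cell and nerve markers 1 was lower, Ugt8a, an enzyme of myelin lipid synthesis (-1.39 ± 0.22), with a median of 0.04. Collagens and extracellular matrix (1 of 38 lower, the neutrophil and bone protease Mmp9 at -1.30 ± 0.23) and cell cycle genes (1 of 32 lower, Cdc6 at -1.10 ± 0.28) had medians of -0.13 and -0.14. With normexp background correction every call named in this paragraph came within 2-fold.

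Some kidney marker genes were higher. The calls were 5 higher (27.8%) and 1 lower (5.56%) of 18 measured markers, and the median was 0.61. Slc5a2, a glucose transporter of the kidney tubule, had scaled signals of 0.0540, 0.816 and 0.175 on the nonswimming, normal-food swimming and Chlorella swimming arrays (log2 ratio 1.69 ± 0.26). Cdh16, kidney cadherin, had 0.192, 2.05 and 0.493 (1.36 ± 0.21), and Lrp2, megalin, had 0.132, 0.615 and 0.354 (1.43 ± 0.22, and 0.57 at its other measured probe). The order, with the normal-food swimming array highest and the nonswimming array lowest, was that of the fatty acid synthesis genes. Of the defining markers Kap had 5.31, 32.7 and 7.57 (0.51 ± 0.20), Umod, uromodulin, was lower (-1.03 ± 0.24) and Slc12a1 was not well above background on either array compared. The 3 genes named as higher here and Umod came within 2-fold with normexp background correction. Of 19 liver markers 2 were higher (10.5%), Apob (1.85 ± 0.26) and Pck1, and 1 was lower (5.26%), Hpx (-1.01 ± 0.21), with a median of -0.60 and albumin, Alb, at -0.78 ± 0.20.

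Outside the lists, the largest higher ratios among genes with a symbol were mostly those of dim probes. Eml2, a microtubule-binding protein, was the clearest, with scaled signals of 0.660 on the nonswimming, 4.57 on the normal-food swimming and 6.05 on the Chlorella swimming array (log2 ratio 3.20 ± 0.20). Tatdn2, a putative deoxyribonuclease, had 0.144, 0.664 and 1.57 (3.44 ± 0.21), and E130114P18Rik had 0.0292, 0.258 and 0.364 (3.64 ± 0.32). For all 3 the nonswimming array was low and both swimming arrays high. Zfyve9, or SARA, an anchor of SMAD signalling, had 0.174, 0.795 and 1.20 (2.79 ± 0.21). The second Zfyve9 probe was seen on the nonswimming array only, so the probes disagree. Nfasc (2.64 ± 0.29) and Cdc42bpg (2.62 ± 0.26) were dim on the nonswimming array. Among lower genes outside the lists, Lpcat2b (-3.31 ± 0.30) and the cartilage collagen gene Col9a3 (-3.08 ± 0.34) were dim on the Chlorella swimming array. Of 86 called genes with several measured probes, 14 had a probe of opposite sign and 44 had every measured probe beyond 2-fold.

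Genes seen on only 1 of the arrays compared have a bound in place of a ratio: the measured value is set against the dim probe's signal or, if higher, against the faintest signal that counted as measured on that array. Higher by the farthest bound was Dnajc5b, a DnaJ-type co-chaperone, with a log2 bound of 4.68, a scaled signal of 0.579 on the Chlorella swimming array and no signal well above background on the 2 others. The olfactory receptor genes Olfr832 (3.31), Olfr374 (3.02) and Olfr1394 (2.77) and the coagulation factor gene F8 (3.29) followed, all on dim probes. Lower by bound were again skin genes, with Krt15, a basal keratin, at -4.90, Dmkn, dermokine, at -3.31 and Ly6d at -3.08. Slc25a41, a mitochondrial carrier, and Mob3b followed at -3.05 each.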

How the data were processed

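Per the labels' protocols, the muscle RNA of 10 mice was combined for each group, Cy3-labelled, and run on a single-colour Agilent array. The deposited scanner files hold intensity values, a background-subtracted processed signal with its error and flags per spot, and the submitters' processing notes name Agilent Feature Extraction 9.5. The authors' deposited value table holds log2 values of 13683 spots. Its differences between the arrays compared were within 0.01 of the scanner files' log2 differences, less a constant, for 55.8% of spots (r of 0.71 across spots, which are not independent). Its columns had medians of 0.008, -0.005 and 0.010. Scale and direction follow from this match, while the centring is unknown, which is why its columns entered as differences alone. No column of per-sample values was left unused.

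Control spots and spots with outlier flags were left out, and spots of a probe were averaged. Each array's 75th percentile over 41169 probes was subtracted from the log2 processed signals. Probes were named through RefSeq (GRCm38.p6, names and promoter sequences only): 23079 by accession, 6581 by symbol, 3073 by an older symbol, while 8436 are named as in the file. The brightest probe stood for a gene, and 19508 of 27661 genes had a RefSeq symbol. Calls needed 2-fold and a probe well above background on both arrays. The median scanner error was 10.0% of the signal, and 245 probes spotted 10 times had a median SD of 0.066 log2 between spots on the nonswimming array (166 probes with 8 or more measured spots) and 0.058 on the Chlorella swimming array (165 probes).

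Named genes were the 10 largest and 10 smallest ratios among called genes with a symbol, a signal of at least 50 on the brighter array and all measured probes of the same sign. They also took in up to 4 called members of each of 51 lists in each direction, the defining markers, and the 5 farthest bounds a direction. Of these a part is named. Some results, withheld for evaluation, are left out. Tnni1 is a defining marker, and Actc1, Otop1 and Pck1 are among their lists' farthest calls. The comparison, the lists and the rule were chosen with earlier results of these data known. The scaling was varied (quantile, cyclic loess, centring on the median, the percentile taken over measured probes only), as were the background correction (normexp, offset 50), the filter on dim probes (none, or at least 50 on both arrays), the summary of probes (their mean) and the source of values (the authors' table). Added after seeing the data were the counts without the genes of the cell type lists and with every measured probe of the same sign. Of the steps, only the 2-fold count was tested on simulated data, with spot error and genes of known fold. The averaging of spots, the filters, the scaling, the naming, the bounds and the lists were not tested in this way. Software was Python 3.11.15 with numpy 2.4.6, pandas 2.3.3 and matplotlib 3.10.9, and R 4.3.3 with limma 3.58.1.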

Additional observations from a re-analysis of the deposited data

How the results depend on the processing

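No paired analysis was possible because each group has 1 pooled array, and for the same reason no array could be left out. The counts of 318 genes higher and 228 lower stayed within 1.5 times under the 4 other scalings, the mean over probes, and both alternatives added after seeing the data (292 to 309 higher and 180 to 252 lower). Requiring the ratio to pass the 95% limit of the scanner error left both counts as they were. With a median error of 0.20 that limit mostly lay below 2-fold, so this requirement could hardly change the counts and is no support for them. The counts became 92 and 57 with normexp background correction, 1395 and 1265 without the filter on dim probes, and 146 and 78 with the stricter filter. With the authors' values, which cover 9464 genes, 174 were higher and 170 lower. The share of calls that were higher, 58.2%, ranged from 50.6% with the authors' values to 65.2% with the stricter filter. No setting moved the all-gene median by over 0.1. All 107 called genes under the naming rule kept their sign in every setting that measured them, and 52 stayed beyond 2-fold in all of them. Most of the rest came within it with normexp only, so dim probes limit the size of their ratios. Of 50 list medians 36 kept their sign throughout. Among list medians at least 0.2 from 0, those of slow fibre, muscle fibre and platelet genes did not keep their sign. They were -0.094 with the authors' values, 0.0 with quantile normalization and 0.046 with normexp, in that order. The erythroid median, -0.196, turned to 0.168 with the stricter filter. The cause of these turns was not tested. Entering bounded members moved the neutrophil median to -1.25, that of skin to -1.72, that of B cells from 0.10 to -0.14 and that of T and NK cells from 0.06 to -0.18, so the last 2 changed sign.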
